A study of Mus musculus with 9 samples.

Results

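The comparison described here sets primary mouse skin fibroblasts given melanoma-conditioned medium against control fibroblasts. It rests on 6 of the 9 RNA-seq libraries of the study: 3 control libraries and 3 libraries of cultures treated with tumor-conditioned medium (TCM), taken by the treatment in their labels. The 3 remaining libraries, from cultures given TCM after lipid removal with Cleanascite, entered the fit only to estimate the spread between replicates. A gene was used where 3 or more of the 6 libraries gave it a normalized count, a read count divided by a size factor for its library, of 10 or more. That held for 16625 of the 55401 genes in the deposited table.

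Both groups are wild-type primary normal fibroblasts grown out of skin fragments of newborn mice and kept in DMEM with 10% fetal bovine serum. The treated group received unmodified TCM, medium collected after 24 h on the mouse melanoma line YUMM1.7, also DMEM with 10% serum. The labels do not give the medium of the control cultures during the treatment, nor the length of the treatment. Nor do they tell separate animals or cultures from repeat preparations among the replicates, so every p-value below measures only the spread between these libraries, which may be technical. A single tumor line conditioned the medium, and whole cultures were sequenced, so that fewer cells of a type and less RNA per cell cannot be told apart. The title of the study names glutamine synthesis in cancer-associated fibroblasts.

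Fibroblasts make and remodel the collagen-rich matrix of the dermis. In wounds and tumors they take on several states, of which the best described are a contractile, matrix-producing myofibroblast state, driven by transforming growth factor beta and tension, and an inflammatory state that secretes cytokines and chemokines for leukocytes. Medium from tumor cells holds growth factors, cytokines, lipids and metabolic waste, and lacks part of the nutrients of fresh medium.

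The 6 libraries held 51015024 to 57243351 reads each. In a principal component analysis of the 6 libraries the first component took 81.1% of the variance, with the control libraries between -52.9 and -52.2 and the TCM libraries between 50.4 and 56.5. The second component, 7.24% of the variance, spread the TCM libraries from -25.5 to 28.7 and kept the control libraries between -1.21 and 0.285. TCM replicates were thus less alike than control replicates: where both group means reached 100, the median SD over genes of the log2 values was 0.101 in TCM and 0.0499 in control. Part of the spread followed base composition. Among protein-coding genes with a mean of at least 100, split into 10 bins of equal size by transcript GC content, the median log2 difference of TCM replicate 1 from the other TCM libraries was -0.24 in the highest bin and 0.098 in the lowest. TCM replicate 3 deviated the other way, by 0.20 and -0.096. The change between groups also followed GC content, with a median log2 change of 0.10 in the lowest bin and -0.099 in the highest. Its part in single results was not tested. Without TCM replicate 1, limma called 10659 genes in place of 10198.

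**Figure D1:**
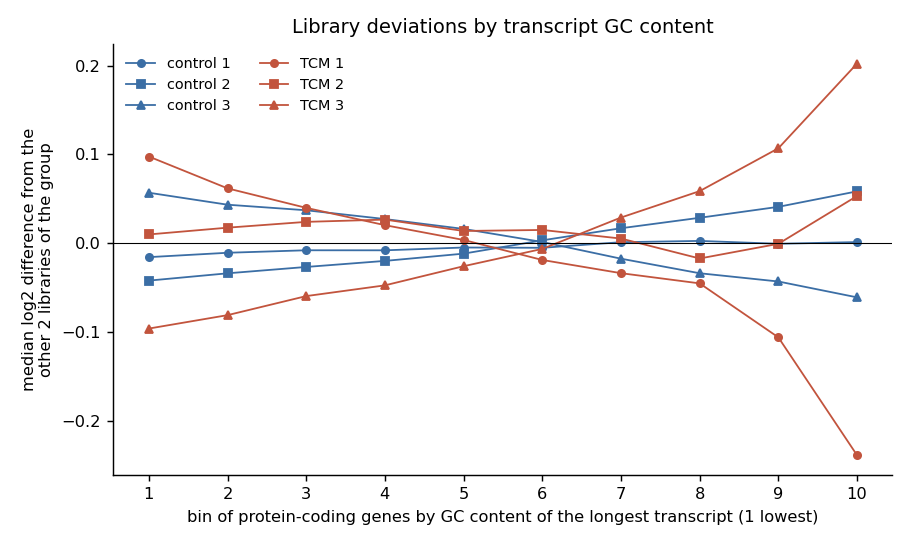
Median log2 difference of each library from the other 2 libraries of its group (vertical axis), over 10 bins of protein-coding genes ordered by the GC content of their longest transcript (horizontal axis, 1 lowest). TCM replicate 1 falls to -0.24 and TCM replicate 3 rises to 0.20 in the highest bin, while the control libraries stay between -0.061 and 0.058.

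Fibroblast markers were abundant in both groups. All 12 fibroblast markers passed the filter, from 52.5 normalized counts per kb of exon in control for Fap, fibroblast activation protein, to 141290.4 for Col1a1, the collagen type I alpha 1 chain. Defining markers of leukocytes were at or near 0: Itgam and Cd3e had no read in any of the 6 libraries, and Ptprc (CD45) and Adgre1 had at most 3.19 normalized counts. The summed level of the 8 immune and macrophage markers was 286 to 372 in control and 221 to 264 in TCM, nearly all of it from the 3 that passed the filter. Of these Cd68, a lysosomal glycoprotein of macrophages, rose by 1.09 on the log2 scale, Csf1r, the receptor of macrophage growth factor, fell by 2.21, and Lyz2, a lysozyme, fell by 0.67. Of the melanocyte and melanoma markers, Tyr (tyrosinase), Mlana and Slc45a2 had at most 6.74 normalized counts in any library, and the summed level of all 8 was 757 to 864 in control and 881 to 955 in TCM. Mitf and Sox10, transcription factors that are not confined to melanocytes, made up most of it. The 5 members of this list other than Tyr, Mlana and Slc45a2 passed the filter, and 2 of them rose and 1 fell. Their log2 changes ran from -0.94 to 0.60. The endothelial list summed to 97.3 to 122 in control and 82.8 to 95.1 in TCM, and Cldn5, Tie1 and Emcn were below 10 in every library. The keratinocyte list summed to 114 to 142 and 105 to 113. Skeletal muscle markers summed to 1141 to 1241 in control and 673 to 774 in TCM, with 1 of 3 tested higher and 1 lower. Schwann cell markers summed to 255 to 295 and 327 to 356, with 1 of 4 higher. Adipocyte markers summed to 211 to 282 and 146 to 183, with 1 of 3 lower. Pericyte and smooth muscle markers were present in control and moved with the treatment, as given below.

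TCM changed most of the transcriptome. limma on log2(normalized count + 1), with Benjamini-Hochberg adjustment over the 16625 genes, called 10198 genes (61.3%) at an adjusted p below 0.05. Of all genes tested, 29.8% were called higher and 31.5% lower, which is the background against which each gene group below is read. For 64.5% of genes every TCM library lay on the same side of every control library. Large changes were fewer: 13.4% were called and changed at least 2-fold, 849 up and 1375 down, and 189 rose and 408 fell at least 4-fold. The median change of all genes was -0.0040 on the log2 scale, with 10th and 90th percentiles of -0.89 and 0.69. This balance rests on the scaling. With every library scaled to the same total the median of all genes moved up by 0.16 and 66.3% of calls were higher in place of 48.6%. Every size given below with rose, fell, higher or lower is a change on this log2(normalized count + 1) scale with a limma adjusted p below 0.05; where reads are few this scale shrinks the change.

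**Figure D2:**
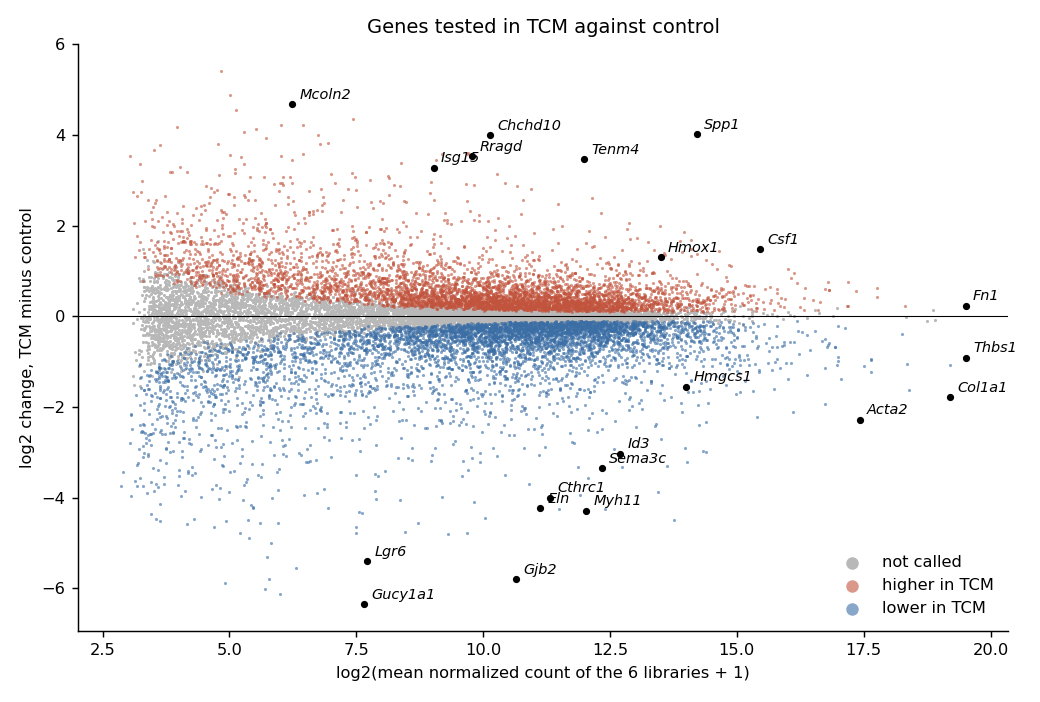
Log2 change, TCM minus control (vertical axis), against the log2 of the mean normalized count of the 6 libraries plus 1 (horizontal axis), for the 16625 genes tested. Red and blue points are genes called higher and lower by limma, grey points are not called, and black points are named genes. Large falls reach into the most abundant genes, with Col1a1 at -1.78 and Acta2 at -2.28, while Spp1 is at 4.01.

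Genes of the contractile apparatus fell nearly as a whole. Acta2, smooth muscle actin, had 290355, 289077 and 295263 normalized counts in the control libraries and 58311, 56021 and 66174 in the TCM libraries (log2 change -2.28, SE 0.06, limma adjusted p = 7.3e-12). Cnn1, the actin-binding protein calponin, went from 20645, 21284 and 21036 to 1223, 1459 and 1625 (log2 change -3.88, SE 0.08, limma adjusted p = 1.77e-12). Myh11, smooth muscle myosin heavy chain, had 7794, 7511 and 8594 in control and 355, 438 and 429 in TCM (log2 change -4.29, SE 0.08, limma adjusted p = 7.77e-13). In all of them the lowest control library lay several fold above the highest TCM library. Of the 20 tested genes of the actin and contractile apparatus 19 fell, with a median of -1.58, and the exception was Des, the muscle intermediate filament desmin, which rose by 0.50 with overlapping libraries (205, 173 and 149.8 in control, 203, 305 and 244 in TCM). The call of Des was lost without control replicate 3 (limma adjusted p = 0.0788) and without TCM replicate 2 (limma adjusted p = 0.0731). Together the 20 genes held 2.10% ± 0.0158 (SD, n = 3) of all normalized counts in control and 0.959% ± 0.0437 in TCM (two-sided exact permutation p = 0.1, the smallest that 3 against 3 libraries can give).

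Genes that serum response factor and its coactivators drive fell with them, 13 of 16 lower and 3 higher (median -0.79). Myocd, the coactivator myocardin, fell from 261, 283 and 312 to 55.1, 65.3 and 72.2 (log2 change -2.14, SE 0.16, limma adjusted p = 1.66e-07), and Srf itself fell by 0.89 and Mrtfa fell by 0.80. The lowest control library lay far above the highest TCM library. Fhl1, a LIM protein of muscle, fell by 2.38 and Csrp1, a LIM protein bound to actin, fell by 1.72, whereas Tgm2, transglutaminase 2, rose by 1.37. Genes driven by YAP and TEAD were mixed: 9 of 16 fell and 5 rose, with Ccn2, connective tissue growth factor, which fell by 2.99, and Ankrd1, a stress-responsive ankyrin repeat protein, higher by 0.92. Markers of pericytes and smooth muscle moved the same way, 7 of 8 lower. Rgs5, a regulator of G-protein signaling that marks pericytes, had 808, 749 and 849.7 in control and 31.4, 40.7 and 27.9 in TCM. Kcnj8 and Abcc9, the subunits of a potassium channel of these cells, changed by -4.22 and -3.95. The summed level of the list was 35315 to 37358 in control and 12901 to 14595 in TCM. Myh11 and Des belong to both lists. The part of these markers in the contractile result was not tested.

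A promoter with the element that serum response factor binds is shown for Myl9, myosin regulatory light chain 9, which went from 35013, 35024 and 34656 to 8859, 8714 and 10322 (log2 change -1.91, SE 0.06, limma adjusted p = 3.92e-11). The sequence is the RefSeq promoter window of GRCm38.p6, 250 bases before to 50 after the start, at chr2:156775214-156775513 on the plus strand, with the CArG box in capitals.
Myl9: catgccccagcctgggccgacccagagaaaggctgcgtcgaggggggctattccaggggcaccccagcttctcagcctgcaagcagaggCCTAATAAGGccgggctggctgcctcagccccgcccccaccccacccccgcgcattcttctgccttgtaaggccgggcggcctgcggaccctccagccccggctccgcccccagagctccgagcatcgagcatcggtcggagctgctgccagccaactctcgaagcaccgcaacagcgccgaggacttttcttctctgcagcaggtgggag
The CArG box was searched for on both strands with no mismatch. It was found in 3 of the 17 contractile genes that have such a window (Cnn2, Ldb3 and Myl9) and in 1.81% of the 27025 genes with a window. A match describes the letters in this window and does not show a binding site.

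Most chains of collagen fell. Col1a1 had 906710.1, 941587 and 933570.4 normalized counts in control and 215292, 282663 and 320469.8 in TCM (log2 change -1.78, SE 0.11, limma adjusted p = 2.22e-08), the greatest loss of normalized counts of any gene tested. Col1a2, the other chain of type I collagen, went from 807417, 833072 and 824806 to 373621, 378956 and 416926 (log2 change -1.08, SE 0.06, limma adjusted p = 5.54e-09), and Col12a1, a collagen on the surface of fibrils, from 512654, 467915 and 571812 to 152274, 180758 and 169759 (log2 change -1.63, SE 0.09, limma adjusted p = 6.96e-09). The groups were apart for each, and for Col1a1 TCM replicate 1 was the lowest of the TCM libraries. Of 36 tested collagen chains 24 fell and 7 rose (median -0.71). Col8a2, of a short-chain collagen, fell by 3.20, and Col10a1, the collagen of hypertrophic cartilage, fell by 2.73. Col18a1, whose C-terminal fragment is endostatin, rose from 9651, 10315 and 9696 to 22346, 25942 and 26463. Collagen chains as a whole made up 7.05%, 7.14% and 7.18% of all normalized counts in the control libraries and 3.84%, 4.14% and 4.41% in the TCM libraries.

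The proteins that fold, modify and crosslink collagen fell too: 16 of 18 were lower and 1 was higher (median -0.57). Loxl2, a lysyl oxidase, went from 93014, 94679 and 97136 to 35559, 35974 and 37530.1 (log2 change -1.39, SE 0.04, limma adjusted p = 2.29e-11). P4ha3, a prolyl hydroxylase subunit, fell by 1.79, P3h1, a prolyl 3-hydroxylase, fell by 1.33, and Serpinh1, the collagen chaperone of the endoplasmic reticulum, fell by 0.67. P3h2, a prolyl 3-hydroxylase that acts on other collagens, was the member that rose, by 1.99.

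Elastic fibers followed, with 11 of 14 genes lower and 2 higher (median -0.72). Eln, elastin, had 4498, 4400.4 and 3801 in control and 223, 225 and 224 in TCM (log2 change -4.23, SE 0.07, limma adjusted p = 2.91e-13). The 3 TCM libraries were within 2 normalized counts of each other and far under the lowest control. Mfap5, a microfibril protein, fell by 2.11, Fbn2, a fibrillin, fell by 1.65, and Fbn1, the main fibrillin of skin, fell by 0.98, whereas the glycoprotein Emilin2 rose by 0.73 and Efemp1, a fibulin, by 0.68. Small leucine-rich proteoglycans, which bind collagen fibrils, split: 6 of 10 fell and 3 rose. Fmod, fibromodulin, went from 36241, 37182 and 36384 to 4330.2, 5034 and 4681 (log2 change -2.97, SE 0.05, limma adjusted p = 3.57e-13), and Omd, osteomodulin, fell by 2.84. Dcn, decorin, rose from 4746, 4598 and 4648 to 11547, 10368 and 10589.6 (log2 change 1.21, SE 0.05, limma adjusted p = 2.33e-10), and Podn, podocan, by 0.67. The groups were apart for each of these.

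Matricellular proteins, which sit in the matrix and act on cells, fell in 15 of 18 cases (median -0.96). Ccn3 had 23877, 22936 and 21583 in control and 2166, 2426 and 2315 in TCM (log2 change -3.31, SE 0.06, limma adjusted p = 3.67e-13), and Thbs1, thrombospondin 1, went from 964504, 955355 and 1012277 to 506904, 502513 and 548884 (log2 change -0.91, SE 0.06, limma adjusted p = 4.38e-08). Postn, periostin, fell by 0.94, Sparc fell by 1.06 and Tnc, tenascin C, fell by 1.39. Spp1, osteopontin, a secreted phosphoprotein that binds integrins and CD44, went the other way, from 2212, 2274 and 2173 to 37861, 33445 and 36224 (log2 change 4.01, SE 0.05, limma adjusted p = 4.12e-14). It lies on chromosome 5, 104435118 to 104441050, plus strand, in GRCm38. The other member that rose was Fn1, fibronectin, by 0.23 (limma adjusted p = 0.0452). That call was lost without control replicate 1 or 2 or TCM replicate 2 or 3, with limma adjusted p of 0.121, 0.145, 0.151 and 0.103. It was also lost with the 6 libraries alone and with a replicate block (limma adjusted p = 0.0796 and 0.0595).

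Laminins, the network of basement membranes, did not fall as a group: 6 of 11 rose and 4 fell. Lama5 went from 554, 513 and 521 to 1305, 1564 and 1673 (log2 change 1.51, SE 0.08, limma adjusted p = 7.86e-09) and Lama1 rose by 1.14, whereas Lamb2 fell by 0.88. Of 21 integrin chains, the receptors for matrix, 13 fell and 5 rose. Itga11, the alpha chain of a collagen receptor, had 69426, 71262 and 72146 in control and 14271, 15371 and 16111 in TCM (log2 change -2.22, SE 0.05, limma adjusted p = 1.6e-12). Itga8, whose dimer binds nephronectin and fibronectin, fell by 2.59, and Itga1, of another collagen receptor, fell by 1.79.

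Enzymes that cut the matrix were divided. Among 15 matrix metalloproteinases 7 rose and 6 fell. Mmp11, stromelysin 3, went from 6646, 6985 and 6435 to 17159, 17344 and 18412 (log2 change 1.40, SE 0.05, limma adjusted p = 1.47e-10), Mmp2, gelatinase A, rose by 0.54, and Mmp14, the membrane protease that activates it, fell by 0.65. Of 16 ADAMTS proteases 11 fell and 3 rose: Adamts18 went from 675, 733 and 633 to 27.6, 27.4 and 18.3 (log2 change -4.76, SE 0.16, limma adjusted p = 7.94e-11), while Adamts5, an aggrecanase, rose by 0.92. Of 10 inhibitors and activators of matrix proteolysis 8 fell, among them Timp3, which fell by 0.94, and Plaur, the urokinase receptor, which fell by 1.43. In hyaluronan metabolism 7 of 12 fell. Cemip, which degrades hyaluronan, had 5563, 5490.1 and 5429 in control and 308, 257 and 304 in TCM (log2 change -4.24, SE 0.09, limma adjusted p = 1.77e-12), and Has2, a hyaluronan synthase, fell by 1.11.

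Most genes of the machinery that carries matrix and other proteins out of the cell fell as well. A link between these changes and those of the matrix genes was not tested. Of 20 genes of the COPII coat and the Golgi 17 were lower and 1 higher (median -0.62). Sec24d, a cargo adaptor of the COPII coat, went from 14524, 14433 and 14282 to 7321, 7568 and 7654 (log2 change -0.94, SE 0.04, limma adjusted p = 3.13e-10), and Sec23a, its partner, fell by 1.07. Mia3 (TANGO1), which loads collagen at exit sites, was the member that rose, by 0.57. Of 22 chaperones and sensors of the endoplasmic reticulum 16 fell and 3 rose. P4hb, protein disulfide isomerase, fell by 1.19 and Calr, calreticulin, fell by 1.19. The 3 that rose were Ern1 and Atf6, sensors of unfolded proteins, and the co-chaperone Dnajb9, by 0.78, 0.47 and 0.33.

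**Figure D3:**
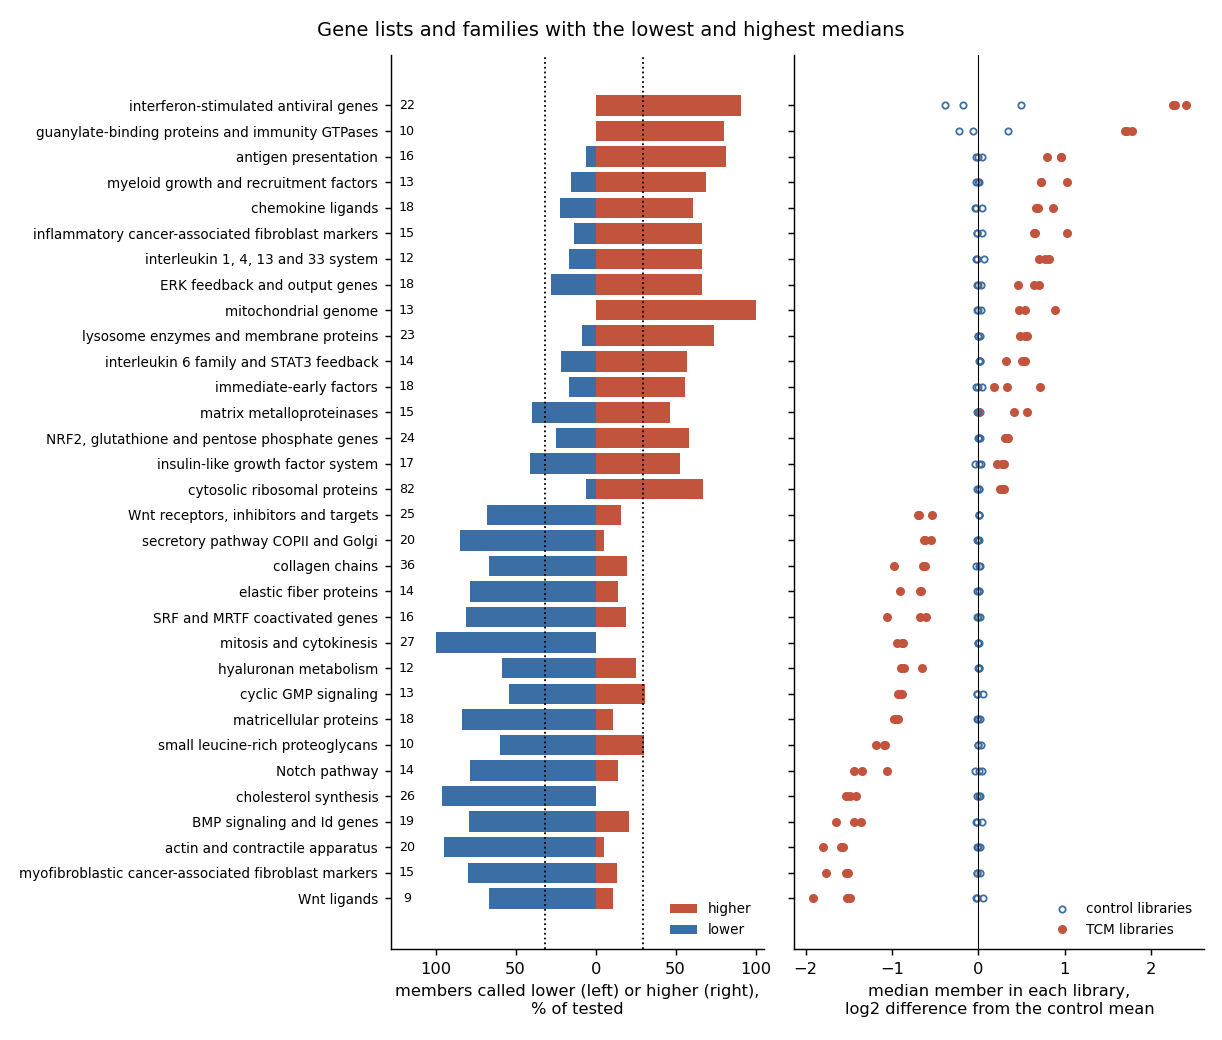
Gene lists and families with the 16 lowest and 16 highest medians among those with at least 9 tested members. Left, the percentage of tested members called lower (blue) or higher (red), with the number tested at the left edge and the background over all genes as dotted lines; right, the median member in each library as the log2 difference from the control mean. The contractile list has 19 of 20 members lower and the interferon list 20 of 22 higher.

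The ligands behind matrix production changed unevenly. In the transforming growth factor beta list 9 of 18 fell and 3 rose. Tgfb3, a ligand, went from 13828, 13729 and 14271 to 3966, 3779.7 and 3851 (log2 change -1.85, SE 0.04, limma adjusted p = 1.77e-12), and Tgfb2, another, fell by 1.73. Tgfb1, the third ligand, was 2916, 3072 and 3129.9 in control and 1786, 2859 and 3033 in TCM, overlapping groups with no call (limma adjusted p = 0.111). Without TCM replicate 3 it was called lower (log2 change -0.43, limma adjusted p = 0.0258). Ltbp2, of a family that anchors the ligands in the matrix, fell by 1.95, whereas the co-receptor Tgfbr3 (betaglycan) rose by 1.46. Inhba, the activin A subunit, fell by 1.10.

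Genes of bone morphogenetic protein signaling fell more evenly, 15 of 19 lower and 4 higher (median -1.48). The Id genes, inhibitors of helix-loop-helix transcription factors and direct targets of the pathway, led: Id3 had 11359, 12067 and 12041 in control and 1106, 1467 and 1859 in TCM (log2 change -3.03, SE 0.14, limma adjusted p = 1.41e-09), and Id2 had 1653, 1745 and 1899 in control and 191, 159.9 and 224 in TCM (log2 change -3.21, SE 0.13, limma adjusted p = 4.53e-10). Feedback inhibitors fell as well. Nog, noggin, which traps the ligands outside the cell, went from 1347, 1410.4 and 1442 to 88.4, 156 and 126 (log2 change -3.53, SE 0.16, limma adjusted p = 1.66e-09), and Smad6, which blocks the signal inside, fell by 1.83. Among ligands Bmp4 fell by 2.13 and Bmp6 rose by 2.06, and the antagonist Grem1, gremlin 1, rose from 15191, 14962 and 15538 to 24423, 21582 and 21396.

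Notch genes fell in 11 of 14 cases (median -1.25). Hey1, a repressor that Notch induces, had 675, 724 and 682 in control and 70.3, 75.7 and 83.8 in TCM (log2 change -3.16, SE 0.10, limma adjusted p = 4.66e-11), Heyl fell by 3.12 and Hey2 fell by 3.80. The ligand Jag1 went from 17399, 17124 and 17992 to 5674, 5138 and 5561 (log2 change -1.68, SE 0.05, limma adjusted p = 1.54e-11). The groups were far apart in each. The letters CGTGGGAA, bound by the transcription factor of the pathway, were found on either strand in the promoter windows of 2 of the 11 Notch genes with a window (Hey2 and Lfng) and in 0.862% of all 27025 genes. The 2 that rose were Jag2, a ligand with 8.5, 10.4 and 7.66 in control and 17.1, 10.4 and 30.8 in TCM, and Rfng, a glycosyltransferase, by 0.24. Both calls were marginal. That of Jag2 was kept without TCM replicate 2 and lost without any other single library (limma adjusted p 0.061 to 0.222), and that of Rfng was kept without TCM replicate 1 and lost without any other (0.0538 to 0.146). With the 6 libraries alone both were lost too (limma adjusted p = 0.0772 for Jag2 and 0.0647 for Rfng).

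Most Wnt ligands and readouts fell too. Of 9 tested ligands 6 fell and 1 rose: Wnt4 went from 3912, 4047 and 3792 to 433, 549.7 and 432 (log2 change -3.06, SE 0.09, limma adjusted p = 2.8e-11), and Wnt9a fell by 2.10. Wnt5a, the most abundant ligand, was not called, with 4666, 4721 and 4845 in control and 4433, 4414 and 4590 in TCM (log2 change -0.083, SE 0.04, limma adjusted p = 0.0933). Of 25 receptors, inhibitors and targets 17 fell and 4 rose (median -0.60). Axin2, a target and brake of the canonical pathway, had 308, 359 and 330.3 in control and 26.6, 26.5 and 31.8 in TCM (log2 change -3.51, SE 0.21, limma adjusted p = 1.97e-08). Wif1, a secreted inhibitor, fell by 4.05, and Lgr6, a receptor for R-spondins and a marker of skin stem cells, went from 415, 408 and 408 to 9.51, 10.4 and 6.74 (log2 change -5.40, SE 0.19, limma adjusted p = 1.39e-10), while Dkk2, an inhibitor, rose by 1.59. Hedgehog genes fell in 10 of 12 cases (median -0.51). Gli1, the transcription factor that reads out the pathway, went from 355, 456 and 375 to 90.3, 71 and 94.4 (log2 change -2.20, SE 0.17, limma adjusted p = 1.68e-07), and the receptor Ptch1, also a target, fell by 0.78.

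Sterol synthesis fell as a block. Of 26 tested genes of cholesterol synthesis and its control 25 fell and none rose, with a median of -1.43. The gene not called was Scap, which escorts the transcription factors of the pathway (log2 change 0.10, SE 0.07, limma adjusted p = 0.224). Without TCM replicate 1 Scap was called higher, by 0.16 (limma adjusted p = 0.0332). Hmgcs1, which makes an early precursor, had 24579, 24481 and 24364 in control and 8721, 8104 and 8136 in TCM (log2 change -1.56, SE 0.05, limma adjusted p = 3.07e-11). Idi1, an isomerase of the pathway, went from 10312, 10115 and 10326 to 2940.3, 2663 and 2829 (log2 change -1.87, SE 0.08, limma adjusted p = 9.2e-10). The libraries were close within each group for Hmgcs1, and the groups were apart for both genes. The summed share of the list was 0.301% ± 0.00478 (SD, n = 3) of normalized counts in control and 0.129% ± 0.00565 in TCM.

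The promoter window of Hmgcs1 holds a sterol regulatory element of the letters TCACNCCAC, which is bound by the transcription factors that raise these genes when sterols are low. It lies on the plus strand of chromosome 13 of GRCm38.p6, at chr13:119690101-119690400 (RefSeq), with the match in capitals.
Hmgcs1: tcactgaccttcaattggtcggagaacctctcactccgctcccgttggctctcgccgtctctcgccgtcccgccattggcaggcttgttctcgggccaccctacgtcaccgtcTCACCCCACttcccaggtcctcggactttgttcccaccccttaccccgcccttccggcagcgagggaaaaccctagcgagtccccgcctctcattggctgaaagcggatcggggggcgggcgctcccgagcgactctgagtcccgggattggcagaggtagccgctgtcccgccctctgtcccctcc
The same letters, on both strands, were found in 1 of the 18 cholesterol genes with a window and in 1.44% of all 27025 genes. Forms of the element that differ in a letter were not searched.

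Fatty acid synthesis fell in 15 of 20 genes and rose in 4 (median -0.55). Scd2, a stearoyl-CoA desaturase, went from 81286, 81971 and 81418 to 37822, 37297 and 36176 (log2 change -1.14, SE 0.04, limma adjusted p = 1.54e-10), Fads2, a desaturase of polyunsaturated fatty acids, fell by 1.65, and Fasn, fatty acid synthase, fell by 0.96. Genes that liver X receptors control, and those that oxidize or export sterols, were divided, with 8 of 18 higher and 6 lower. Cyp27a1, a sterol 27-hydroxylase, rose from 29.7, 37.1 and 25.2 to 219, 251 and 249 (log2 change 2.94, SE 0.14, limma adjusted p = 2.55e-09). Ch25h, which makes 25-hydroxycholesterol, went from 249, 299 and 303 to 1175, 1001 and 1518 (log2 change 2.10, SE 0.13, limma adjusted p = 2.13e-08), and Abcg1, a sterol exporter, rose by 1.43. The libraries did not overlap for these 3 genes. Members of the list that fell included Scd2, given above, Mylip by 0.72 and Srebf1 by 0.63. The log2 changes of the whole list ran from -5.89 to 2.94, and 2 of its members fell at least 2-fold. Uptake and storage of lipid were mixed as well: Lpl, lipoprotein lipase, went from 9367, 9101 and 9020.2 to 26440.2, 25565 and 24965 (log2 change 1.49, SE 0.04, limma adjusted p = 1.02e-11), Plin2, which coats lipid droplets, rose by 0.92, and Mgll, monoglyceride lipase, fell by 1.98.

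Lysosomal genes rose. Of 23 tested enzymes and membrane proteins of the lysosome 17 were higher and 2 lower (median 0.49). Gla, an alpha-galactosidase, went from 1048, 1026 and 1037 to 2911, 2495 and 2602 (log2 change 1.36, SE 0.06, limma adjusted p = 1.22e-09), Ctsl, the protease cathepsin L, from 20099, 19757 and 19959.6 to 37068, 37801 and 34414 (log2 change 0.87, SE 0.04, limma adjusted p = 3.07e-09), and Lamp1, a glycoprotein of the membrane, rose by 0.51. The members that fell were cathepsins: Ctsc fell by 0.83 and Ctsh fell by 0.36. The list held 0.513% ± 0.00577 (SD, n = 3) of normalized counts in control and 0.780% ± 0.0172 in TCM. Of 18 subunits of the proton pump that acidifies the lysosome 9 rose and 4 fell.

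The transcription factors of the MiT/TFE family drive lysosomal genes, and 11 of 20 factors, partners and targets rose while 2 fell. Rragd, a GTPase that reports nutrients at the lysosome, had 160.4, 125 and 135 in control and 1783, 1619 and 1473 in TCM (log2 change 3.53, SE 0.09, limma adjusted p = 1.11e-11). Mcoln2, a cation channel of endosomes and lysosomes, had 6.37, 4.63 and 3.28 in control and 139.7, 121 and 172 in TCM (log2 change 4.68, SE 0.25, limma adjusted p = 6.97e-09). Gpnmb, a membrane glycoprotein, went from 3829.9, 4061 and 3712 to 11674, 14530.2 and 12129 (log2 change 1.72, SE 0.07, limma adjusted p = 5.15e-10), and Sqstm1 (p62), an autophagy receptor, from 14484, 14583 and 14258 to 30693, 33109 and 33003 (log2 change 1.16, SE 0.04, limma adjusted p = 2.06e-10). For all 4 genes every TCM library was above every control library. The letters TCACGTGA, an element that these factors bind, were found on either strand in the promoter windows of 0 of the 20 list members and in 1.125% of all 27025 genes; this says only that these letters are not in these windows. Mitf, a factor of the family, rose by 0.24 (limma adjusted p = 0.0109); without control replicate 2 its adjusted p was 0.0522.

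**Figure D4:**
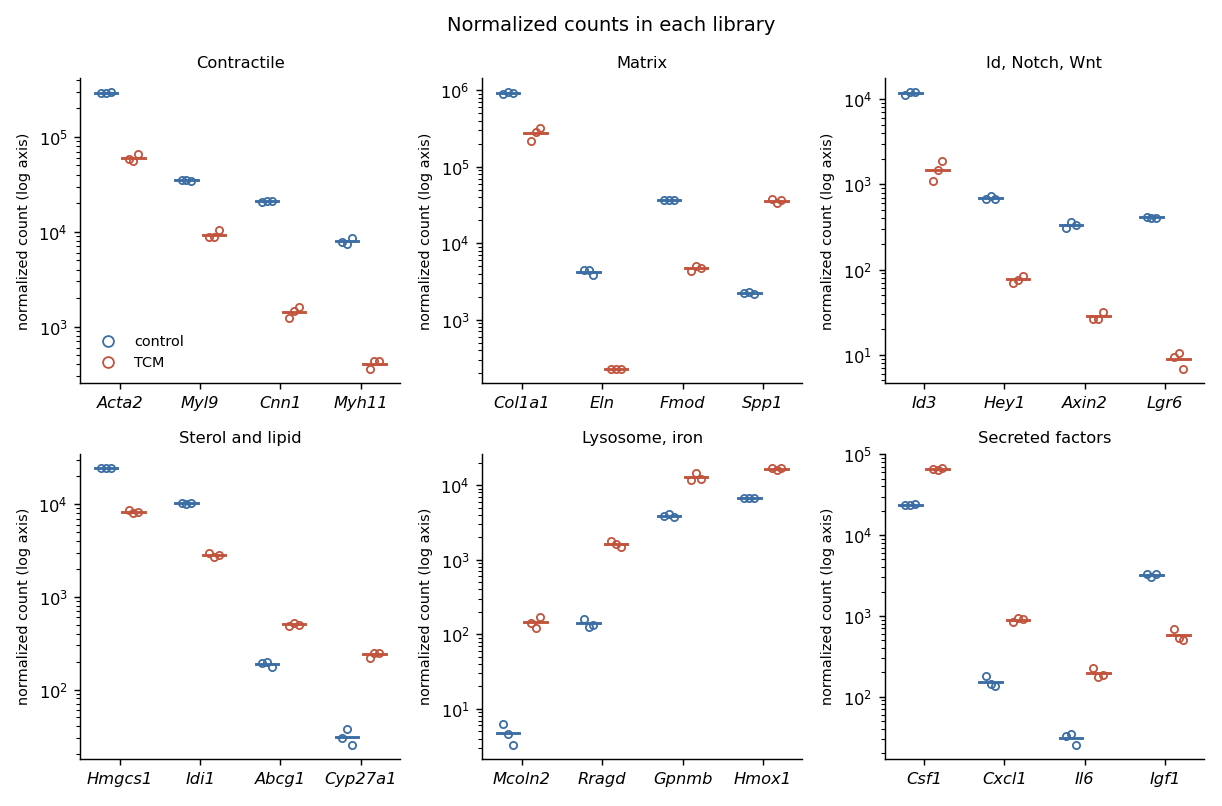
Normalized counts of 24 genes in each library (log axis), 3 control libraries in blue and 3 TCM libraries in red, with the mean of each group as a bar. In every panel the groups are apart: Acta2 falls from 291565 ± 3266 to 60168 ± 5325, and Spp1 rises from 2219.7 ± 51.1 to 35843 ± 2233 (mean ± SD, n = 3).

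Stress responses were partial. Of 24 genes of the NRF2 response, glutathione and the pentose phosphate pathway 14 rose and 6 fell (median 0.35). Hmox1, heme oxygenase 1, went from 6657, 6746 and 6679.8 to 16975, 15762 and 16753 (log2 change 1.30, SE 0.04, limma adjusted p = 1.23e-10), and Fth1 and Ftl1, the chains of the iron store ferritin, rose by 1.10 and 0.95. Srxn1, sulfiredoxin, rose by 0.90, but Nqo1, often used to read out NRF2, fell by 0.25, a call that was lost with libraries scaled to the same total (limma adjusted p = 0.288). Of 21 genes induced by hypoxia 11 rose and 3 fell (median 0.14): Adm, the vasodilator peptide adrenomedullin, had 199.7, 228 and 212 in control and 1484, 1669.9 and 1644 in TCM (log2 change 2.90, SE 0.07, limma adjusted p = 5.3e-12), and Ero1l, an oxidase of the endoplasmic reticulum, rose by 1.65. The 3 that fell were Pdk1, P4ha2 and P4ha1, by 0.46, 0.21 and 0.16. The glycolysis list did not follow, with 11 of 24 lower and 6 higher (median -0.15, 0.0032 with libraries scaled to the same total). Slc16a1, the lactate transporter MCT1, rose by 1.46, and Hk2, a hexokinase, fell by 0.46. Of 24 genes of the amino acid response 8 rose and 10 fell. Ddit3 (CHOP), a stress transcription factor, went from 2961, 3003 and 2784 to 11209, 12910.5 and 12357 (log2 change 2.06, SE 0.06, limma adjusted p = 1.36e-11) and Trib3, a pseudokinase it induces, rose by 0.91, whereas Chac1, which degrades glutathione, fell by 0.57.

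Interferon-stimulated genes rose. Of 22 tested antiviral genes 20 rose and none fell, with a median of 2.33. Isg15, a ubiquitin-like modifier, had 49.9, 83.4 and 198 in control and 1083, 772 and 929 in TCM (log2 change 3.28, SE 0.36, limma adjusted p = 5.78e-06). Ifit1, which binds foreign RNA, had 46.7, 66 and 277 in control and 564, 611 and 509 in TCM (log2 change 2.54, SE 0.48, limma adjusted p = 0.000522), and Zbp1, a sensor of Z-form nucleic acids, had 6.37, 19.7 and 19.7 in control and 185, 207 and 221 in TCM (log2 change 3.81, SE 0.33, limma adjusted p = 6.77e-07). The groups did not overlap in these genes, but control replicate 3 was well above the other controls for Isg15 and Ifit1. It was the highest control for 21 of the 22 genes. Without it 20 of 22 were still called higher, the median was 2.58, and Isg15 changed by 3.81 and Ifit1 by 3.31. Irf7, which amplifies the response, rose by 2.72, and Irf9 and Stat2, parts of the factor that reads out type I interferon, rose by 1.23 and 1.10. Cmpk2, a mitochondrial nucleotide kinase, was among the genes not called, with 6.37, 17.4 and 27.3 in control and 12.4, 22.7 and 14.4 in TCM.

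**Figure D5:**
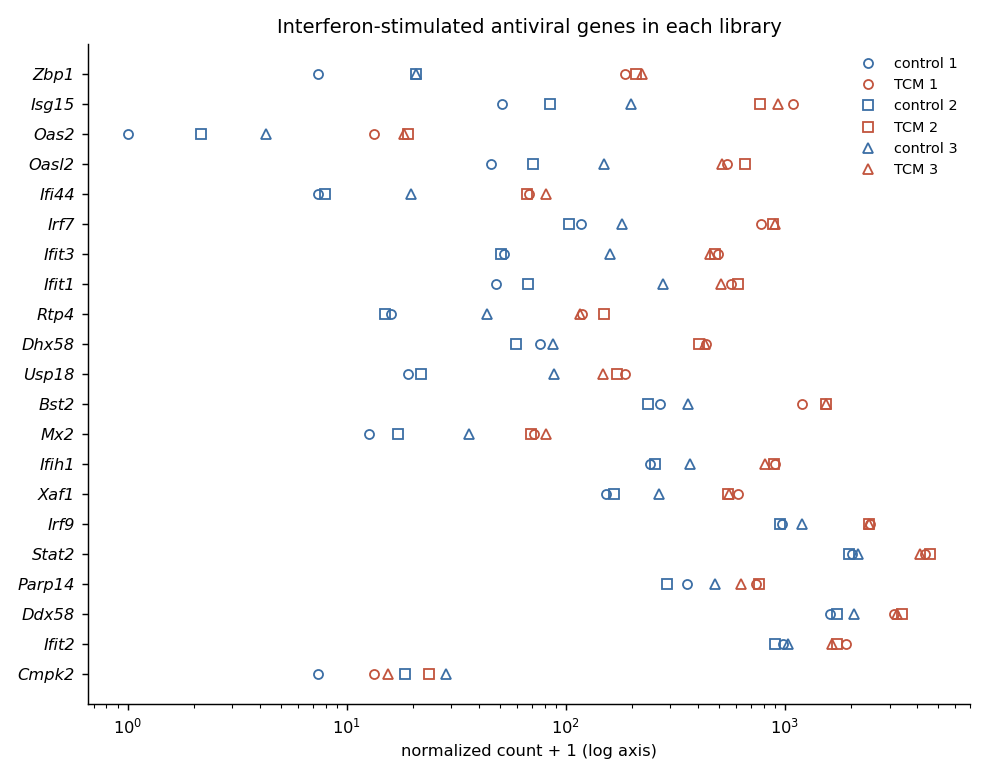
Normalized counts plus 1 (log axis) of 21 of the 22 tested interferon-stimulated antiviral genes, ordered by their change, in the control libraries (blue) and TCM libraries (red), with a symbol for each replicate number. Control replicate 3 is the highest control for 20 of the genes shown, and the groups overlap for Cmpk2.

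Windows around the starts of 3 of these genes are shown because they carry the element that interferon-stimulated factors bind, searched as GAAANNGAA on both strands. They are RefSeq windows of GRCm38.p6, each 250 bases before to 50 after the start in the direction of the gene: Isg15 at chr4:156200769-156201068 on the minus strand, Ifit1 at chr19:34640639-34640938 on the plus strand and Ifit3 at chr19:34583279-34583578 on the plus strand. Capitals mark the matches. They overlap in Isg15 and in the first run of Ifit1, are separate in Ifit3, and read on the opposite strand in Ifit1 and Ifit3.
Isg15: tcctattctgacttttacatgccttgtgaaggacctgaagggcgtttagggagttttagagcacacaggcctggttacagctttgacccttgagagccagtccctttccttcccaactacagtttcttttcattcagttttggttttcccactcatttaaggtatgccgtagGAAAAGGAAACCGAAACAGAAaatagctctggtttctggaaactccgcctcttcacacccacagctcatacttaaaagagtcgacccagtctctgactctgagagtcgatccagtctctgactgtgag
Ifit1: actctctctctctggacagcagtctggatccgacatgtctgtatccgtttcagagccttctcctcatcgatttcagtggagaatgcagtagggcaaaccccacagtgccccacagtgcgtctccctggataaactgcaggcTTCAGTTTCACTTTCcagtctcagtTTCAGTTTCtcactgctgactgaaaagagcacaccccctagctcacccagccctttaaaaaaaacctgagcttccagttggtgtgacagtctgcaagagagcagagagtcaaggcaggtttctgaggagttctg
Ifit3: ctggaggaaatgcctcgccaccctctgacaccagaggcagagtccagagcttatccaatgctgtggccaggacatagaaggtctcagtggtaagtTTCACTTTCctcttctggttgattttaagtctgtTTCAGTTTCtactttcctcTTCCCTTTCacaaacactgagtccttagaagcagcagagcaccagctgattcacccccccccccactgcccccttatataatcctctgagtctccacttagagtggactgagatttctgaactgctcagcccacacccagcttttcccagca
The element was found in 8 of the 14 antiviral genes with a window and in 9.76% of all 27025 genes. Ifit3, whose product binds that of Ifit1, had 51, 49.8 and 157 in control and 494, 479 and 452 in TCM (log2 change 2.67, SE 0.32, limma adjusted p = 1.29e-05).

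Guanylate-binding proteins and immunity-related GTPases, which act on membranes around microbes, rose in 8 of 10 cases with none lower (median 1.73). Igtp had 90.3, 61.4 and 142 in control and 441, 395 and 399.6 in TCM (log2 change 2.14, SE 0.22, limma adjusted p = 2.63e-06), and Irgm2 rose by 1.81. Gvin1, a very large interferon-inducible GTPase outside that list with near-identical copies in the genome, went from 112, 79.9 and 217 to 1427, 1676 and 1479 (log2 change 3.60, SE 0.25, limma adjusted p = 8.13e-08). Again control replicate 3 was the highest control for Igtp and Gvin1, and again below all TCM libraries. Antigen presentation rose with them, 13 of 16 higher and 1 lower (median 0.88). The class I heavy chain H2-K1 went from 2283, 2250.0 and 2408 to 3546, 4466 and 4396 (log2 change 0.83, SE 0.07, limma adjusted p = 8.66e-07) and B2m, its light chain, rose by 0.73. Nlrc5, the activator of class I genes, rose by 1.92. Cd74, the invariant chain of class II molecules, had 78.6, 66 and 42.7 in control and 511, 493 and 509 in TCM (log2 change 3.04, SE 0.19, limma adjusted p = 2.99e-08), with Ptprc at or near 0 as given above. Reads of class I genes can be split between near-identical copies, so single H2 genes are uncertain.

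Secreted factors for leukocytes mostly rose. Of 18 tested chemokines 11 rose and 4 fell (median 0.79). Cxcl1, which attracts neutrophils, had 179.5, 145 and 135 in control and 842, 939 and 908 in TCM (log2 change 2.55, SE 0.11, limma adjusted p = 7.27e-10), and Cxcl5, which does so too, rose from 496, 445 and 422 to 2393, 1871 and 1901. Ccl11 (eotaxin) rose by 3.15, and Cxcl12, a chemokine of resident fibroblasts, went from 893, 923 and 856 to 2257, 2091 and 2125 (log2 change 1.27, SE 0.05, limma adjusted p = 5.63e-10). The TCM libraries were above the controls for each. Ccl2 and Ccl7, which attract monocytes, rose less, by 0.77 and 0.81, and Cxcl14, a chemokine of skin, fell from 791, 829 and 789.6 to 139, 151 and 142 (log2 change -2.47, SE 0.11, limma adjusted p = 1.24e-09).

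Among growth and recruitment factors of myeloid cells 9 of 13 rose and 2 fell (median 0.81). This list shares genes with the chemokine and matricellular groups above, Ccl7 and Spp1 among them, so its count is not separate from theirs. Csf1, the growth factor of macrophages, had 23394, 23833 and 24262 in control and 66644, 64724 and 67713 in TCM (log2 change 1.48, SE 0.04, limma adjusted p = 1.05e-11). Its libraries were close within each group and apart between groups. Kitl, stem cell factor, rose by 1.41, whereas Gas6, a ligand of the receptor Axl, fell by 1.22. In the interleukin 6 family 8 of 14 rose and 3 fell: Il6 itself had 32.9, 34.7 and 25.2 in control and 229, 174 and 188 in TCM (log2 change 2.64, SE 0.19, limma adjusted p = 1.26e-07), and the oncostatin M receptor Osmr went from 6920.4, 6639 and 7039.6 to 24375, 25932 and 24321 (log2 change 1.86, SE 0.04, limma adjusted p = 2.38e-12). Lifr, the receptor of leukemia inhibitory factor, fell by 1.49. Of 12 tested genes of the interleukin 1, 4, 13 and 33 system, receptors and others, 8 rose and 2 fell. Among receptors, Il1rl1 (ST2), the receptor of interleukin 33, went from 2347, 2225 and 2519 to 7787, 6246 and 6841 (log2 change 1.55, SE 0.07, limma adjusted p = 2.42e-09), Il13ra1 rose by 1.25 and Il4ra by 0.76. Il1rn, the natural antagonist of interleukin 1, fell from 66.9, 78.7 and 86.4 to 1.9, 1.89 and 3.85 (log2 change -4.50, SE 0.39, limma adjusted p = 6.38e-07).

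Subunits and feedback genes of NF-kB were mixed, 5 of 17 higher and 5 lower. Nfkbiz, an atypical inhibitor that coactivates Il6, went from 415, 409.9 and 421 to 1955, 1582 and 1808 (log2 change 2.09, SE 0.08, limma adjusted p = 3.58e-10), while Nfkbia, the classical feedback inhibitor, fell by 0.84. Feedback and output genes of the ERK pathway rose in 12 of 18 cases and fell in 5 (median 0.65). Spry2, a feedback inhibitor, went from 817, 819.9 and 779.8 to 2355, 2019 and 2128 (log2 change 1.42, SE 0.06, limma adjusted p = 9.73e-10) and Dusp6, an ERK phosphatase, rose by 0.89, but Spry1 fell from 7715, 7646 and 7828 to 3516, 3534 and 3827 (log2 change -1.09, SE 0.04, limma adjusted p = 4.03e-10). Immediate-early factors rose in 10 of 18 cases. Egr1 rose by 1.63 and Myc by 0.96. Junb had 1158, 1046 and 1234 in control and 1365, 3959 and 4422 in TCM (log2 change 1.33, SE 0.32, limma adjusted p = 0.0027), where TCM replicate 1 was far below the other TCM libraries; without it the change was 1.87.

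The growth factors that fibroblasts supply changed in both directions. In the insulin-like growth factor system 9 of 17 rose and 7 fell. Igf1 went from 3286, 3022 and 3266 to 689, 537 and 504 (log2 change -2.48, SE 0.11, limma adjusted p = 8.24e-10) and Igfbp5, a binding protein, from 171145, 169381 and 177708 to 45446, 46535 and 43476 (log2 change -1.94, SE 0.05, limma adjusted p = 5.04e-12). The receptor Igf1r rose by 0.83. Of 12 fibroblast growth factors 5 rose and 5 fell: Fgf7 and Fgf10, which act on epithelium, rose by 0.73 and 1.12, and Fgf18 had 115, 115 and 115 in control and 11.4, 4.73 and 6.74 in TCM (log2 change -3.82, SE 0.26, limma adjusted p = 6.14e-08). Hgf, hepatocyte growth factor, rose by 0.60, Vegfa, the main angiogenic factor, by 0.63, and Ptn, pleiotrophin, fell by 1.92. Pdgfra, a receptor of platelet-derived growth factor that marks fibroblasts, went from 14199.9, 13456 and 13649 to 38758, 37919 and 35802 (log2 change 1.44, SE 0.04, limma adjusted p = 4.67e-11), whereas its paralog Pdgfrb was not called (log2 change 0.04, SE 0.04, limma adjusted p = 0.389).

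Guidance cues of axons and vessels changed in opposite directions within families. Of 20 semaphorins 9 rose and 8 fell. Sema3c had 9320.4, 9487 and 9598 in control and 934, 955 and 903 in TCM (log2 change -3.35, SE 0.05, limma adjusted p = 6.77e-14), and Sema3e had 190.2, 193 and 234 in control and 962, 1083 and 959 in TCM (log2 change 2.28, SE 0.09, limma adjusted p = 4.74e-10). Of 18 ephrins and Eph receptors 12 fell and 3 rose, among them Epha3 from 4066, 4154 and 4346 to 618, 535 and 543 (log2 change -2.89, SE 0.07, limma adjusted p = 5.68e-12). The groups were apart for these genes.

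Receptors of prostaglandins and of nitric oxide changed. Ptger3, a prostaglandin E2 receptor that lowers cyclic AMP, went from 2036, 1907 and 2248 to 238, 319 and 269 (log2 change -2.91, SE 0.10, limma adjusted p = 1.16e-10), while Ptger2 and the prostacyclin receptor Ptgir, which raise it, rose by 1.20 and 1.99. Ptgs1, the constitutive cyclooxygenase, rose by 1.43 and Ptgs2, the inducible one, fell by 0.60. Gucy1a1, a subunit of the guanylate cyclase that senses nitric oxide, had 446, 394 and 343 in control and 5.7, 1.89 and 4.81 in TCM (log2 change -6.35, SE 0.28, limma adjusted p = 1.29e-09). Its partner Gucy1b1 fell by 1.45, and Npr3, the clearance receptor of natriuretic peptides, went from 1613, 1634 and 1885 to 107, 104 and 87.6 (log2 change -4.09, SE 0.09, limma adjusted p = 3.23e-12).

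Genes of cell division fell. All 27 tested genes of mitosis and cytokinesis were lower (median -0.90), among them Plk1, a mitotic kinase, from 2745, 2941 and 2601 to 1020.0, 1379 and 1176 (log2 change -1.22, SE 0.09, limma adjusted p = 1.84e-07), and Top2a, topoisomerase II alpha, which fell by 0.67. Genes of DNA replication moved less, with 12 of 25 lower and 5 higher (median -0.17). Rrm2, a subunit of ribonucleotide reductase, fell by 1.06, whereas Mcm2, of the replicative helicase, rose by 0.43 and Cdt1, which loads it, by 0.54. Among cyclins and inhibitors of cyclin-dependent kinases 10 of 20 fell and 5 rose. The inhibitor Cdkn2b (p15) fell from 2488, 2545 and 2441 to 579.9, 864 and 786 (log2 change -1.76, SE 0.11, limma adjusted p = 3.59e-08), and Cdkn2a, at the same locus, from 773, 793 and 750.2 to 221, 269.6 and 300.4. Targets of p53 were divided, 9 of 20 higher and 5 lower, with Mdm2, its feedback inhibitor, higher by 0.56 and Sesn1, which fell by 0.97.

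Transcripts of translation and of the mitochondrial genome took a larger share of the libraries. Of 82 tested cytosolic ribosomal protein genes 55 rose and 5 fell (median 0.29), and the 84 listed genes together were 3.30% ± 0.0661 (SD, n = 3) of normalized counts in control and 4.52% ± 0.0277 in TCM (two-sided exact permutation p = 0.1). Rps24 went from 31516, 31422 and 32207 to 47829.7, 54749 and 49573 (log2 change 0.67, SE 0.05, limma adjusted p = 1.89e-07). Many ribosomal protein genes have processed copies in the genome, to which reads can be lost or from which they can be gained. All 13 protein-coding genes of the mitochondrial genome rose (median 0.60), with mt-Nd2, a subunit of complex I, at 43750.3, 42567 and 42509 in control and 79931, 105812 and 83207 in TCM (log2 change 1.05, SE 0.08, limma adjusted p = 2.98e-07). TCM replicate 2 was the highest library for mt-Nd2. The call of mt-Co1, the most abundant of the 13, was marginal, at 0.22 (SE 0.09, limma adjusted p = 0.0487). The groups did not overlap for 12 of the 13 genes. Copies of mitochondrial genes in the nuclear genome can share reads with them. Nuclear-encoded subunits of complex I did not rise with them: 7 of 36 were higher and 11 lower (median -0.019, 0.14 with libraries scaled to the same total).

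Read against fibroblast states described in tumors, 12 of 15 markers of the myofibroblastic state fell and 2 rose (median -1.63), and 10 of 15 markers of the inflammatory state rose and 2 fell (median 0.77). Cthrc1, a secreted protein of matrix-producing fibroblasts, had 4762, 4923 and 4766 in control and 266, 331 and 304 in TCM (log2 change -4.00, SE 0.07, limma adjusted p = 6.53e-13). The myofibroblastic markers that rose were Mmp11 and Thy1, the latter by 0.38, and the inflammatory markers that fell were Has2 and Saa3, an acute-phase protein with 19.1, 18.5 and 21.9 in control and 1.9, 10.4 and 7.7 in TCM; its log2 change was -1.65, and -1.06 without TCM replicate 1. Both lists share genes with the contractile, matrix and chemokine groups above. Among genes of dermal lineage and identity 11 of 21 fell and 5 rose. Prrx2, a homeobox factor of mesenchyme, went from 5684, 6049 and 5367 to 877, 886 and 1126 (log2 change -2.57, SE 0.09, limma adjusted p = 9.51e-11), Dlk1, a marker of reticular dermis precursors, fell by 1.69, and Crabp1, a retinoic acid binding protein, rose by 0.99.

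Glul, glutamine synthetase, the gene to which the study's title points, had 834, 873 and 939 normalized counts in control and 1708, 1686 and 1489 in TCM (log2 change 0.88, SE 0.07, limma adjusted p = 3.93e-07), and its groups did not overlap. Genes that make or spend glutamate around it moved both ways, 10 of 23 higher and 7 lower. Got1, the cytosolic aspartate aminotransferase, rose from 2768, 2816 and 2812 to 4565, 4018 and 4107 (log2 change 0.59, SE 0.05, limma adjusted p = 7.67e-07). Glud1, glutamate dehydrogenase, went from 13351, 13397 and 13382 to 9213, 9106 and 9399 (log2 change -0.53, SE 0.04, limma adjusted p = 4.57e-08) and Oat, ornithine aminotransferase, fell by 0.96. The enzymes that spend glutamine on hexosamines went apart: Gfpt1 fell by 0.61 and Gfpt2 rose by 0.54.

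Several of the largest changes lay outside these groups. Gjb2, the gap junction protein connexin 26, had 3033, 3041 and 3371 in control and 55.1, 44.5 and 70.3 in TCM (log2 change -5.79, SE 0.13, limma adjusted p = 3.68e-12). Tspan18, a tetraspanin, went from 1545, 1592 and 1603 to 58.9, 59.6 and 51 (log2 change -4.78, SE 0.10, limma adjusted p = 2.1e-12). Both groups of libraries were close within and far apart. Tenm4, a teneurin of cell contacts, rose from 678, 584 and 761 to 6372, 8505 and 7547 (log2 change 3.47, SE 0.10, limma adjusted p = 3.11e-11), and Car6, a secreted carbonic anhydrase, from 85, 90.3 and 90.8 to 962, 1169 and 1081 (log2 change 3.57, SE 0.09, limma adjusted p = 6.92e-12). Chchd10, a mitochondrial protein, had 136, 118 and 128 in control and 1336, 2718 and 2324 in TCM (log2 change 3.99, SE 0.19, limma adjusted p = 2.39e-09), with TCM replicate 1 the lowest of its group. Grm4, a metabotropic glutamate receptor, had 7.44, 5.79 and 10.9 in control and 135, 176 and 180.0 in TCM (log2 change 4.21, SE 0.22, limma adjusted p = 6.14e-09). Slc5a7, the choline transporter, fell by 3.08 and Kcnk3, a potassium leak channel, fell by 4.22. Of 42 tested potassium channel subunits 19 fell and 12 rose, and of 220 solute carriers 85 fell and 62 rose.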

How the data were processed

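Per the labels, RNA from cultured fibroblasts was sequenced in 3 libraries a group. The deposited values are a signal: read counts per gene that the authors divided by 1 size factor per library. The tools named are STAR 2.7.9a and DESeq2, with Trim Galore 0.6.6 and FastQC for the reads and mm10 as the build, per the submitters' processing notes. How reads were counted, with which strand setting and annotation, is not given in the sources used here, so overlapping, antisense and near-identical genes can share reads. Whole reads were recovered for 100% of values (tolerance 0.01), 51015024 to 57243351 reads in the 6 libraries. Gene names came from GENCODE M21, which matched 55141 of 55401 IDs.

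Genes that reached 10 in 3 or more of the 6 libraries were fitted with limma 3.58.1 (trend) in R 4.3.3 on log2(value + 1), over all 9 libraries with a mean per group and 6 residual degrees of freedom, and called at a Benjamini-Hochberg adjusted p below 0.05. Gene lists were counted, not tested. The members and lists were chosen with earlier results of these data known. Named genes were the called members of each list, without overlap and reaching a mean of 100 in the higher group, that had the largest changes, the most abundant members, the largest changes over all genes, and cell type markers; others were named for their known role or as exceptions after their values were seen. The script was tested on simulated data. Alternatives were edgeR 4.0.16 and DESeq2 1.42.0 on the recovered reads, other scalings, filters and pseudocounts, the 6 libraries alone, a replicate block and leaving out each library. edgeR called 10190 genes. Results for some genes are not reported here.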

Additional observations from a re-analysis of the deposited data

How the results depend on the processing

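limma called 10198 genes as reported, and 8213 (adjusted p below 0.01) to 10878 (libraries scaled to the same total) under the other settings, 9503 with the 6 libraries alone and 9163 to 10659 with 1 library left out. Genes called and changed at least 2-fold numbered 1535 to 2946 over all settings. With a replicate block 9925 genes were called. Deviations of same-numbered libraries correlated at 0.049, -0.065 and -0.14, and those of unlike-numbered libraries at -0.055 to 0.16. With 3 libraries a group these values cannot tell whether the numbers pair the samples. Among named genes the sign turned in 1: Cmpk2, not called, was at -0.024 with edgeR, -0.043 with DESeq2, -0.43 without control replicate 1, -0.12 without TCM replicate 2 and up to 0.54 without control replicate 3. With libraries scaled to the same total Scap and Pdgfrb were called higher, at 0.26 and 0.20. The same scaling turned the sign of some list medians. Glycolysis went from -0.15 to 0.0032, cyclins and their inhibitors from -0.089 to 0.069, and solute carriers from -0.051 to 0.11. The median of the DNA replication list moved from -0.17 to -0.0099. A pseudocount of 5 lowered the changes of scarce genes: Gucy1a1 to -5.47, Kcnj8 to -3.35, Il1rn to -3.45 and Mcoln2 to 3.93. Depth was 51015024 to 57243351 reads, so genes of few reads carry the largest counting error, and 38776 genes were below the filter and not tested. With 3 libraries a group an exact permutation test of 1 value cannot go below 0.1. The cause of these differences between settings was not tested.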
